A study of Mus musculus with 3 samples.

Results

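The integrin and laminin genes of the mouse lung were followed across 6 cell classes and 3 single-cell RNA libraries. The set was taken by gene symbol from the feature list: every Itga and Itgb gene, lettered alpha chains included, and every numbered Lama, Lamb and Lamc gene. It held 37 of 31054 features, namely 18 integrin alpha, 8 integrin beta and 11 laminin genes. The first library came from lungs of irradiated mice with a conditional knockout that also received a drug (the knockout library). The second came from lungs of irradiated wild-type mice, and the third from lungs of wild-type mice without irradiation, which served as the control. The sources used here do not name the gene removed, the Cre driver, the drug, the radiation dose, the time after irradiation, the age or the number of mice per library. The target of the knockout could therefore not be checked in the counts, and genotype and drug cannot be told apart. With 1 library per group there is no replicate and no test between groups, and every difference below is a difference between 3 libraries.

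Integrins are cell-surface receptors made of an alpha and a beta chain. Through them cells hold on to matrix proteins such as fibronectin, collagen and laminin, or to other cells through proteins such as VCAM-1, ICAM-1 and E-cadherin, and some of them release active TGF-beta from its latent complex. Laminins are heterotrimers of an alpha, a beta and a gamma chain that form the sheet of a basement membrane together with collagen IV and nidogen. In the lung, basement membranes lie under the alveolar epithelium and around the capillaries, and leukocytes use integrins to leave the blood and to stay in the tissue.

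The level of a gene is given in CPM (counts-per-million), its share of all UMIs of the class, where a UMI is a molecule counted once by its tag. These molecules were tagged at the 3′ end, so that a level does not scale with transcript length. The range in parentheses after a level is the exact Poisson 95% interval of its count, and that after a ratio of 2 levels is the exact interval of the ratio. Both cover counting error only, not differences between mice. A gene counted as apart between 2 libraries when the ratio of (CPM + 5) reached 2 and the higher of both libraries held no fewer than 30 UMIs of it. Log2 ratios refer to CPM + 5 throughout.

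The libraries held 76667310 UMIs in the knockout, 45800421 in the irradiated wild-type and 85984536 in the non-irradiated sample. Cells with at least 250 genes and at most 15% mitochondrial UMIs were kept, 9886 in the knockout, 5805 in the irradiated wild-type and 13091 in the non-irradiated library. Pairs of libraries shared between 25 and 46 barcodes. The irradiated wild-type library also contained 1595 cells (27.5%) with transcripts of a male cell, against 27 in the knockout and 1 in the non-irradiated library. In female-type cells alone, 6 of the calls between irradiated and non-irradiated wild-type cells were lost, with log2 ratios of -0.99 for Itga9 in T cells, 1.00 (just under 2-fold) for Itga3 and -0.25 for Itgae in epithelial cells, and -0.97 for Itga3, 0.90 for Itgal and 0.23 for Itgax in endothelial-gated cells. Itga6 in NK and Lama3 in epithelial cells were apart only there, and the 46 female-type Csf1r cells of the irradiated wild-type library were too few. Against the irradiated wild-type library the knockout lost none of its calls in the other 5 classes in female-type cells and gained Itgb7 in epithelial cells. Cells were placed in classes by simple gates: T cells by Cd3 transcripts, NK cells by Ncr1, myeloid cells by Csf1r, endothelial cells by Pecam1 and Cdh5, fibroblasts by Col1a1 and Col1a2, and epithelial cells by Epcam without Ptprc. All 8 markers listed for a class exceeded 10 CPM in that class in every library, but the gate genes are among them. This does not separate the classes, since all 8 T markers also exceeded 10 CPM in endothelial-gated cells of every library. T cells made up 51.6% of kept cells in the knockout library, 46.1% in the irradiated wild-type and 14.2% in the non-irradiated library. Fibroblasts made up 9.74% in the knockout, 7.30% in the irradiated wild-type and 30.2% in the non-irradiated library. Endothelial-gated cells made up 7.03% in the knockout, 6.91% in the irradiated wild-type and 22.5% in the non-irradiated library. All of these are shares of barcodes that met a gate, and the gates overlap.

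A cell could meet more than 1 gate, and this touched many results. Of endothelial-gated cells, 58.1% in the knockout, 58.1% in the irradiated wild-type and 31.9% in the non-irradiated library also met another gate. A UMI of Ptprc, the pan-leukocyte gene, was present in 60.3% of knockout, 73.3% of irradiated wild-type and 22.7% of non-irradiated endothelial-gated cells. The 4 leukocyte markers summed to 1990 CPM in the endothelial class of the knockout, 2247 in that of the irradiated wild-type and 550.4 in that of the non-irradiated library. Among T cells, 9.45% of knockout, 9.84% of irradiated wild-type and 22.8% of non-irradiated cells met another gate, and the 8 fibroblast markers summed to 616 CPM in knockout, 416 in irradiated wild-type and 2489 in non-irradiated T cells. Levels in cells that meet 1 gate only, or that lack a Ptprc UMI, are therefore printed beside the results they alter.

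Most members belonged to structural cells. Taking the mean of the 3 libraries, 16 of the 37 genes were highest in fibroblasts, 6 in endothelial cells, 6 in epithelial cells, and 3 each in T, NK and Csf1r cells. For 22 genes the same class ranked first in all 3 libraries. A mean of 10 CPM was reached in at least 1 class by 32 genes. The most abundant was Itgb1, the shared beta chain of most matrix-binding integrins, which was the first or second member in each of the 6 classes. The most selective were Itga8, a receptor chain for nephronectin and fibronectin, with a fibroblast mean 9.83 times that of the next class, and Lama2, the laminin alpha chain of muscle and mesenchyme, with 12.1 times.

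**Figure D1:**
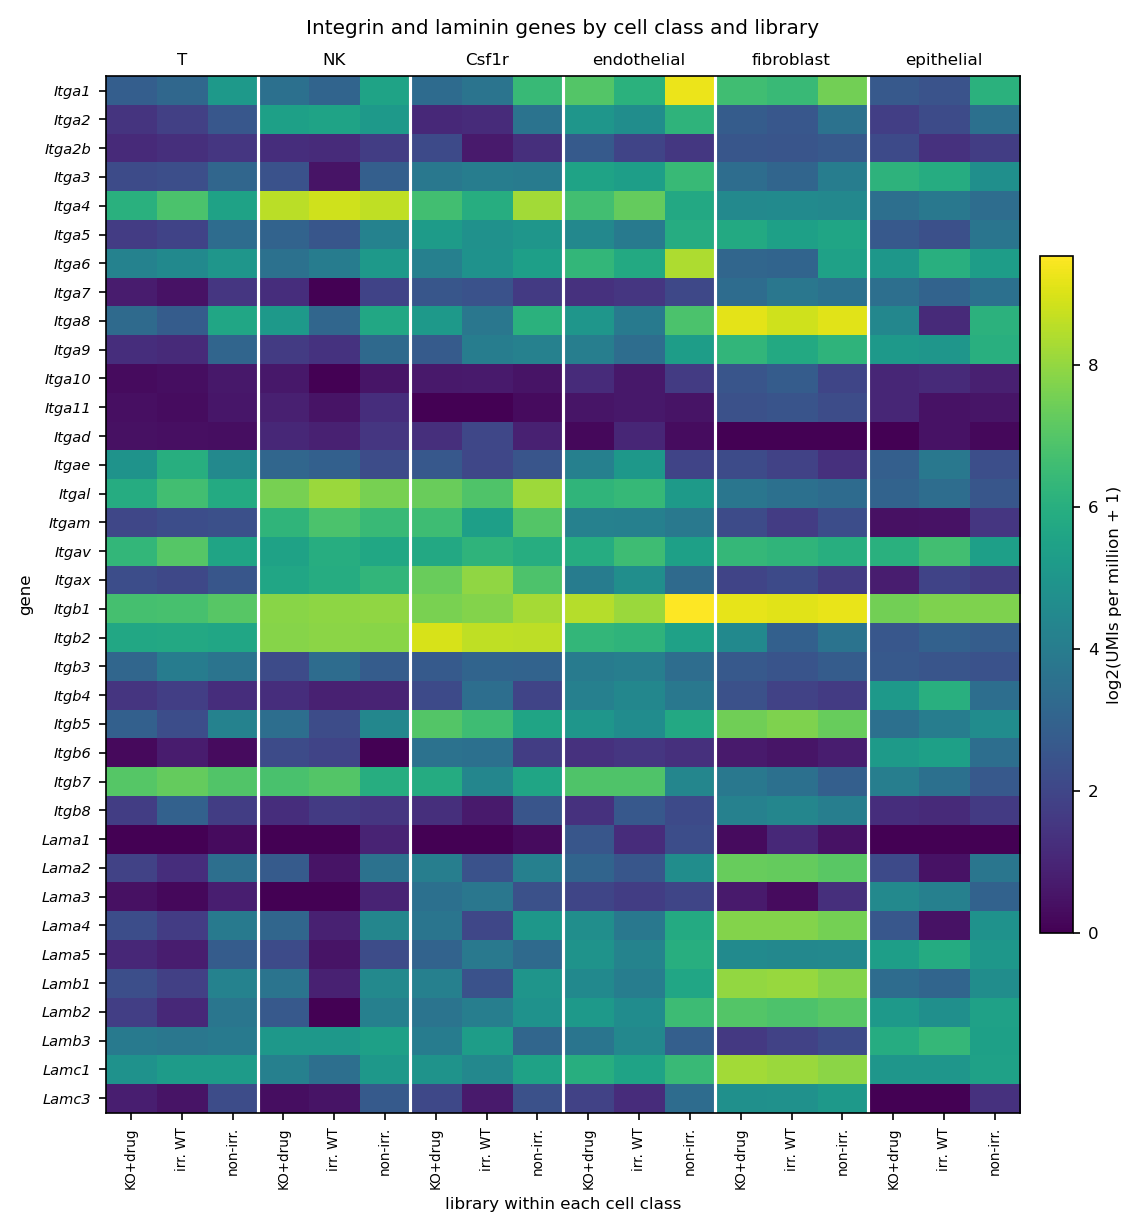
Level of 36 of the genes (rows) in 6 cell classes (column blocks) and 3 libraries (columns within a block), as log2(CPM + 1). Fibroblasts carry the brightest laminin rows, Itgb1 is bright in all classes, and 5 genes stay below 10 CPM on average in every class.

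Between irradiated and non-irradiated wild-type lungs, 19 of 154 gene-class combinations with enough UMIs were higher and 48 were lower, against 3.16% and 6.99% of all gene-class combinations in the table. Between the knockout and the irradiated wild-type library, 10 of 141 combinations were higher and 1 was lower, where the table gave 1.72% and 0.779%. Between the knockout and the non-irradiated library, 11 of 165 were higher and 32 lower, with 2.51% and 4.47% over the whole table. In cells meeting 1 gate only, 16 of 98 combinations were higher and 10 lower in irradiated against non-irradiated wild-type cells (3.90% and 3.83% of all gene-class combinations). There 3 of 96 were higher and 2 lower in knockout against irradiated wild-type cells (1.52% and 1.02%), and 9 of 102 higher and 5 lower in knockout against non-irradiated cells (2.96% and 2.00%). These comparisons share libraries, so that they are not independent of each other. Under all 14 other ways of counting and gating that could be run for them, 11 of the 121 single results that were apart stayed apart. Some of these could not remove a call: a 1.5-fold limit, a minimum of 10 UMIs and 1 CPM added. Leaving out Ptprc-positive cells altered only the endothelial and fibroblast classes and repeated the main counts elsewhere.

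In T cells the alpha chains Itga4, Itgae and Itgav stood highest in the irradiated wild-type library. Of 29 members tested there against the non-irradiated library, 3 were higher (all genes 0.701%) and 8 lower (all genes 5.23%), and their median log2 ratio was -0.30 beside 0.07 over all genes. The 3 higher genes were Itga4, Itgae and Itgav. Itga4 encodes the chain that, paired with the Itgb1 or Itgb7 product, binds VCAM-1, fibronectin or MAdCAM-1 on the way into tissue. It stood at 65.4 CPM (63.00–67.9) in knockout, 113 (108–117) in irradiated wild-type and 44.4 (41.1–48.01) in non-irradiated cells. Irradiated wild-type T cells thus had 2.54 times (2.33–2.77) the non-irradiated level. Itgae, the CD103 chain that pairs with the Itgb7 product and binds E-cadherin on epithelium, stood at 29.1 CPM (27.5–30.8) in knockout, 62.03 (58.7–65.4) in irradiated wild-type and 21.6 (19.3–24.2) in non-irradiated cells. Its ratio of irradiated wild-type to non-irradiated cells was 2.87 times (2.53–3.25). Itgav, the chain shared by the vitronectin receptors and the TGF-beta-activating integrins, stood at 79.6 CPM (76.97–82.4) in knockout, 129 (124–134) in irradiated wild-type and 46.9 (43.5–50.6) in non-irradiated cells, and irradiated wild-type cells had 2.75 times (2.53–2.99) the non-irradiated level. No interval of these 3 genes overlapped between libraries, but with these UMI totals the intervals are narrow. The share of all genes without overlap was not counted, and the non-irradiated Itgb1 interval also lay clear of both others. Itga4, Itgae and Itgav also stayed apart in T cells that meet only the T gate, in more strictly gated T cells and in female-type cells.

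The knockout library lay between the other two for these 3 genes. No member was 2-fold apart in T cells of the knockout against the irradiated wild-type library, in either direction, out of 30 tested (all genes 0.295% higher and 0.156% lower). The log2 ratio of knockout to irradiated wild-type was -0.74 for Itga4, -0.97 for Itgae and -0.66 for Itgav. Under the stricter T gate the Itgae difference passed 2-fold. Itgal, the alpha chain of the ICAM receptor LFA-1, was also highest in irradiated wild-type cells without reaching 2-fold, at 58.6 CPM (56.3–60.98) in knockout, 98.7 (94.5–103) in irradiated wild-type and 55.6 (51.9–59.6) in non-irradiated cells. Itgb7, the beta partner of Itga4 and Itgae and the highest member in T cells, stood at 128 CPM (125–132) in knockout, 157 (151–162) in irradiated wild-type and 122 (116–127) in non-irradiated cells. Itgb1 varied less, at 104 CPM (101–108) in knockout, 107 (103–112) in irradiated wild-type and 133 (127–139) in non-irradiated cells.

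The same order of libraries was seen inside several T subgroups, although their shares differed between libraries. Cells with Foxp3, the regulatory T cell factor, were 3.76% of knockout, 8.83% of irradiated wild-type and 3.23% of non-irradiated T cells. In them Itgae stood at 59.2 CPM (48.8–71.1) in knockout, 139 (125–154) in irradiated wild-type and 35.9 (20.1–59.1) in non-irradiated cells. In cells with a Cd4 UMI and no Foxp3, Itgae stood at 10.2 CPM (7.304–13.9) in knockout, 40.4 (32.7–49.4) in irradiated wild-type and 4.49 (1.81–9.25) in non-irradiated cells, and knockout cells were below irradiated wild-type cells by more than 2-fold in both of these subgroups (log2 -1.17 and -1.58; all genes 0.935% and 0.847% lower). In cells with Cd8 transcripts, Itga4 stood at 67.1 CPM (62.6–71.9) in knockout, 125 (116–136) in irradiated wild-type and 39.8 (34.3–46.1) in non-irradiated cells. In these Cd8 cells Itgav stood at 23.00 CPM (20.4–25.8) in knockout, 60.1 (53.4–67.4) in irradiated wild-type and 15.98 (12.5–20.1) in non-irradiated cells. Itgal stood at 43.9 CPM (40.3–47.8) in knockout, 84.2 (76.2–92.8) in irradiated wild-type and 30.9 (25.99–36.4) in non-irradiated cells of this subgroup. Itga4, Itgav and Itgal were each higher in irradiated than in non-irradiated wild-type Cd8 cells (3 of 18 members, all genes 2.25%). A further 7 were lower, Itga1, Itga8, Itgb5, Lama2, Lama4, Lamb1 and Lamb2, and the share of all genes lower is not given here. Itgae and Itgav were lower in knockout than in irradiated wild-type Cd8 cells (2 of 16 members, all genes 0.335%). In cells with a Trdc UMI, the constant region of the gamma-delta receptor, Itgae stood at 59.3 CPM (55.1–63.8) in knockout, 86.4 (79.2–94.1) in irradiated wild-type and 57.6 (49.5–66.7) in non-irradiated cells, and no member was higher in irradiated than in non-irradiated wild-type Trdc cells out of 20 tested (all genes 0.644%).

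**Figure D2:**
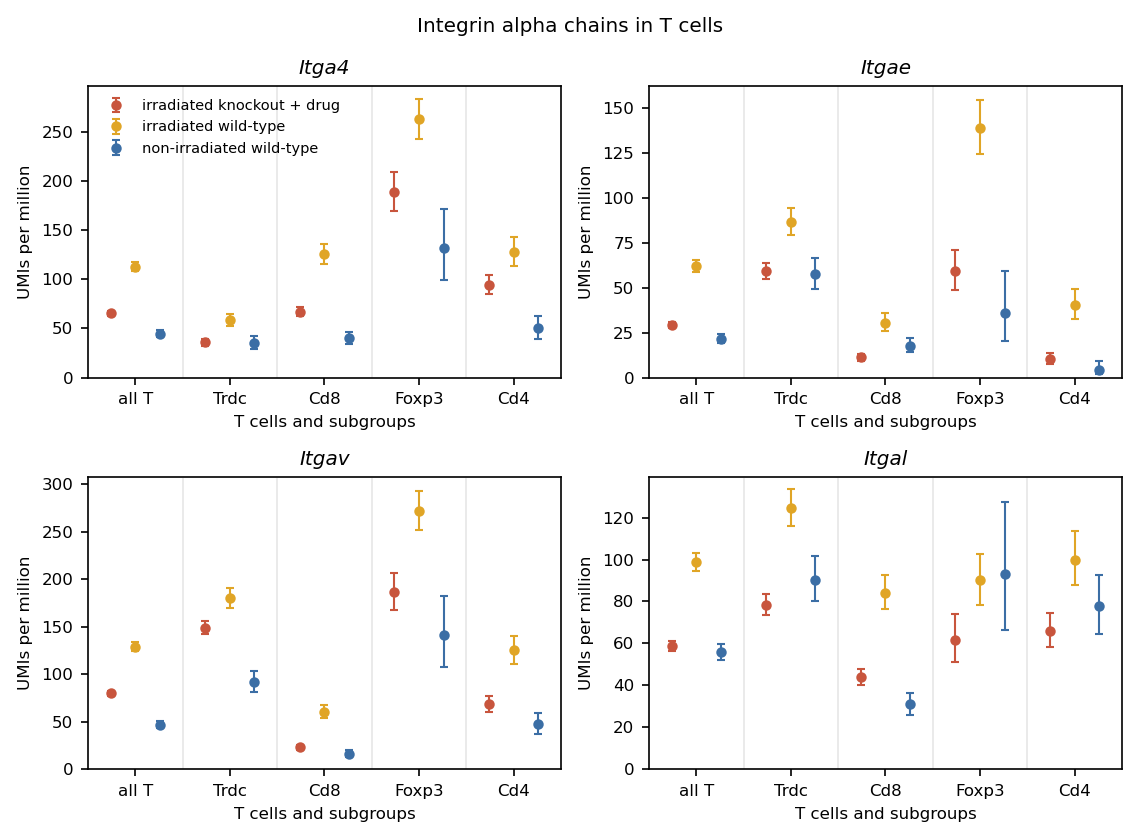
Levels of 4 integrin alpha genes in CPM (vertical axes) in all T cells and in subgroups with Trdc, Cd8, Foxp3 or Cd4 transcripts (horizontal axes), 1 point per library with its exact Poisson 95% interval. Over all T cells, irradiated wild-type cells stand highest for each gene; Itga4 is at 65.4 in knockout, 113 in irradiated wild-type and 44.4 in non-irradiated cells.

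Of the T-cell genes that stood together, RefSeq gives promoters of Itga4 and Itgav (GRCm38.p6, 250 bases before to 50 after the start, strand of the gene). They are printed because these genes lead the T-cell result, and capitals mark a match to the RUNX core TGTGGT, here on the other strand as ACCACA.
Itga4 promoter, chr2:79255176-79255475, plus strand: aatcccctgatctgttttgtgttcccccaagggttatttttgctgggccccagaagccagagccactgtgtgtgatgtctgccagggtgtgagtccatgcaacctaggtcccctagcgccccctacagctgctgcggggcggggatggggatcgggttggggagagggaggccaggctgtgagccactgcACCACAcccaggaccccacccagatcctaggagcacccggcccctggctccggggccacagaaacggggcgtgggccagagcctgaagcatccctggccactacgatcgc
Itgav promoter, chr2:83724147-83724446, plus strand: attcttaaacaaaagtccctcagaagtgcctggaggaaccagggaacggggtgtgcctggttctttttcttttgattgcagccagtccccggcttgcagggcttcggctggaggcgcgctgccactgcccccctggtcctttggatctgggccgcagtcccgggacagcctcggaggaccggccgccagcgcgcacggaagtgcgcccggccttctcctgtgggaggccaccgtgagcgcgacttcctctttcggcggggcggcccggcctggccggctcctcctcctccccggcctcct
The Itga4 window held a RUNX core at base 191 and the Itgav window none, counted from 1 at the 5′ end. Neither held the AP-1 motif TGANTCA, and each held a GC box, GGGCGG. Of the 32851 promoters in the table, 16.8% held a RUNX core, 7.81% an AP-1 motif and 35.7% a GC box on either strand. Among the 26 promoter windows of 23 members found in the table, 3, 3 and 12 windows held these motifs in that order. Itga4 spans chr2:79255426-79333123 on the plus strand and overlaps Cerkl on the other strand, and Itgae (chr11:73090583-73147446) overlaps Haspin. The use of strand in the counting is not stated in the sources used here, so that reads from such partners may be included.

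The 8 genes lower in irradiated than in non-irradiated wild-type T cells were stromal chains. Itga8 stood at 8.72 CPM (7.85–9.66) in knockout, 5.76 (4.79–6.87) in irradiated wild-type and 49.7 (46.1–53.4) in non-irradiated cells. Itga1, a collagen receptor chain, stood at 6.15 CPM (5.43–6.95) in knockout, 7.99 (6.84–9.28) in irradiated wild-type and 34.3 (31.4–37.5) in non-irradiated cells. Itgb5, a partner of the Itgav product in vitronectin binding, stood at 6.603 CPM (5.85–7.43) in knockout, 3.72 (2.95–4.63) in irradiated wild-type and 17.9 (15.8–20.2) in non-irradiated cells. Itga9, a receptor chain for tenascin-C and VCAM-1, stood at 1.38 CPM (1.05–1.78) in knockout, 1.21 (0.789–1.77) in irradiated wild-type and 7.56 (6.21–9.11) in non-irradiated cells. The 4 laminin chains were lowest in the irradiated wild-type library. Lama2 stood at 2.66 CPM (2.19–3.201) in knockout, 1.35 (0.902–1.94) in irradiated wild-type and 10.2 (8.66–12.02) in non-irradiated cells. Lama4, the alpha chain of vascular and mesenchymal laminin, stood at 3.78 CPM (3.21–4.41) in knockout, 2.28 (1.68–3.01) in irradiated wild-type and 14.2 (12.3–16.2) in non-irradiated cells. Lamb1, the most widespread beta chain, stood at 3.896 CPM (3.32–4.54) in knockout, 2.51 (1.88–3.27) in irradiated wild-type and 17.5 (15.4–19.8) in non-irradiated cells. Lamb2 stood at 2.399 CPM (1.95–2.92) in knockout, 1.12 (0.714–1.66) in irradiated wild-type and 12.4 (10.6–14.3) in non-irradiated cells. Against the non-irradiated library the knockout had 5 of 29 members lower, Itga1, Itga8, Lama4, Lamb1 and Lamb2 (all genes 4.21%), and none higher (all genes 0.239%). Most of these UMIs lay in T cells that also met another gate: for Itga8, 89.6% in the knockout library, 88.7% in the irradiated wild-type library and 93.6% in the non-irradiated library, and for Lamb1, 85.98% in the knockout library, 88.9% in the irradiated wild-type library and 95.3% in the non-irradiated library. For Itga4 the share was 17.5% in the knockout library, 17.3% in the irradiated wild-type library and 38.5% in the non-irradiated library. In cells meeting only the T gate, Itga8 stood at 1.04 CPM in knockout, 0.748 in irradiated wild-type and 4.52 in non-irradiated cells, and none of the 8 genes was apart.

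Of 11 genes of integrin activation (talins, kindlins and RAP1 regulators) tested between irradiated and non-irradiated wild-type T cells, 1 was lower and none higher (all genes 5.23% and 0.701%). Their median log2 ratio was 0.04 beside 0.07 for all genes. The lower gene was Fermt2, the kindlin of non-blood cells, at 5.76 CPM (4.79–6.87) in irradiated wild-type against 47.5 (43.99–51.1) in non-irradiated cells. Of 12 matrix ligands of integrins, 9 were lower and none higher (median -1.40), and of 10 basement membrane partners 8 were lower and none higher (median -1.29). Ctgf, a matricellular protein, stood at 3.67 CPM (2.91–4.57) in irradiated wild-type against 45.3 (41.9–48.9) in non-irradiated cells, and Col4a1, a collagen IV chain, at 8.13 CPM (6.97–9.43) in irradiated wild-type against 55.1 (51.3–59.04) in non-irradiated cells. In the knockout against the irradiated wild-type library, 1 of the 12 matrix ligands was apart (all genes 0.295% higher and 0.156% lower). Spp1, osteopontin, stood at 57.8 CPM (55.5–60.1) in knockout against 3.81 (3.03–4.73) in irradiated wild-type cells. The share of these list genes' UMIs in cells meeting another gate was not measured.

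Of the 6 classes, NK cells had the highest Itga4 and Itgal as a mean of the 3 libraries. Itga4 stood at 371 CPM (351–391) in knockout, 465 (438–493) in irradiated wild-type and 397 (371–424) in non-irradiated cells. Itgal stood at 191 CPM (178–206) in knockout, 273 (253–295) in irradiated wild-type and 192 (174–211) in non-irradiated cells, and its beta partner Itgb2, the chain of all leukocyte-specific beta-2 integrins, at 221 CPM (206–237) in knockout, 236 (217–256) in irradiated wild-type and 231 (211–252) in non-irradiated cells. Itgb1 stood at 228 CPM (213–244) in knockout, 243 (223–263) in irradiated wild-type and 245 (224–266) in non-irradiated cells. Itgb7 stood at 109.6 CPM (99.2–121) in knockout, 125 (111–139.8) in irradiated wild-type and 61.2 (51.3–72.5) in non-irradiated cells. Itga2, whose product CD49b marks mouse NK cells, stood at 41.6 CPM in knockout, 45.5 in irradiated wild-type and 34.7 in non-irradiated cells. Itgam, the CD11b chain, stood at 74.3 CPM in knockout, 112 in irradiated wild-type and 87.2 in non-irradiated cells. None of these 7 genes counted as apart between any pair of libraries in the main counts. Itgb7 missed narrowly: its irradiated wild-type level was above 2-fold the non-irradiated one before the constant was added to CPM. Under stricter gates Itgb7 was higher in irradiated than in non-irradiated wild-type NK cells, 1 of 12 members (all genes 2.75%). Lamc1 alone was lower there (all genes 5.89%). In cells meeting only the NK gate none of 10 members was apart between these libraries.

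Of 19 members tested between irradiated and non-irradiated wild-type NK cells, 8 were lower (all genes 6.7%) and none higher (all genes 1.23%). All 8 are genes of stromal cells, and none was apart in NK cells that met the NK gate alone. Itga1 stood at 10.5 CPM (7.49–14.4) in knockout, 7.37 (4.37–11.7) in irradiated wild-type and 45.2 (36.7–55.02) in non-irradiated cells. Itga8 stood at 33.8 CPM (28.1–40.2) in knockout, 7.78 (4.69–12.2) in irradiated wild-type and 52.04 (42.9–62.5) in non-irradiated cells. Itgb5 stood at 9.99 CPM (7.04–13.8) in knockout, 3.69 (1.69–6.999) in irradiated wild-type and 20.1 (14.6–26.97) in non-irradiated cells. Itga5, the alpha chain of the classical fibronectin receptor, stood at 7.29 CPM (4.81–10.6) in knockout, 4.92 (2.54–8.59) in irradiated wild-type and 17.8 (12.7–24.3) in non-irradiated cells. Among laminin chains, Lama4 stood at 7.83 CPM (5.25–11.2) in knockout, 0.819 (0.0992–2.96) in irradiated wild-type and 19.6 (14.2–26.4) in non-irradiated cells. Lamb1 stood at 11.6 CPM (8.404–15.6) in knockout, 0.819 (0.0992–2.96) in irradiated wild-type and 21.5 (15.8–28.5) in non-irradiated cells. Lamb2 had no UMI in irradiated wild-type NK cells, at 5.401 CPM (3.299–8.34) in knockout, 0 (0–1.51) in irradiated wild-type and 16.9 (11.9–23.3) in non-irradiated cells. Lamc1, the gamma chain of most laminins, stood at 17.01 CPM (13.1–21.8) in knockout, 10.2 (6.63–15.1) in irradiated wild-type and 32.9 (25.7–41.4) in non-irradiated cells. The 8 fibroblast markers summed to 1403 CPM in knockout, 320.4 in irradiated wild-type and 4164 in non-irradiated NK cells, so that the markers had the same order of libraries as these 8 genes. Against the non-irradiated library, 3 of 19 members were lower in knockout NK cells, Itga1, Itga6 and Lamb2 (all genes 3.09%), and none was higher (all genes 0.823%). In the knockout against the irradiated wild-type library 2 of 16 members were higher (all genes 3.88%) and none lower (all genes 0.48%), Itga8 with a log2 ratio of 1.60 and Lamb1 with 1.51. In cells meeting 1 gate these ratios were 0.74 and 0.32. All 5 basement membrane partners tested were higher as well, among them Sparc, at 161 CPM (148–174) in knockout against 20.1 (14.9–26.5) in irradiated wild-type cells.

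The Csf1r gate was set for monocytes and macrophages. In Csf1r-gated cells Itga4, Itgal and Itgam were lower and Itgax was higher in irradiated than in non-irradiated wild-type lung. Of this class, 39.2% in the knockout, 29.1% in the irradiated wild-type and 42.4% in the non-irradiated library also met another gate. In it the 8 epithelial markers summed to 1997 CPM in knockout, 18772 in irradiated wild-type and 7838 in non-irradiated cells. Their part in the results was not tested. Of 22 members tested between irradiated and non-irradiated wild-type cells, 3 were higher (all genes 4.11%) and 10 lower (all genes 9.92%), with a median log2 ratio of -0.79 beside -0.14 for all genes. The irradiated wild-type library had 86 such cells, against 240 in the knockout and 628 in the non-irradiated library. The most abundant member, Itgb2, was not apart, at 494 CPM (470.4–517) in knockout, 389 (359–421) in irradiated wild-type and 388 (371–406) in non-irradiated cells, and neither was Itgb1, at 195 CPM (180.4–210.1) in knockout, 217 (195–241) in irradiated wild-type and 305 (289.6–321) in non-irradiated cells. Itga4 stood at 99.9 CPM (89.6–111) in knockout, 60.3 (48.97–73.5) in irradiated wild-type and 294 (279–309.9) in non-irradiated cells. Itgal stood at 164 CPM (151–178) in knockout, 119 (103–137) in irradiated wild-type and 284 (269–299.7) in non-irradiated cells. Itgam, whose product pairs with that of Itgb2 as the complement receptor Mac-1, stood at 93.8 CPM (83.9–105) in knockout, 40.6 (31.4–51.7) in irradiated wild-type and 127 (117–137) in non-irradiated cells. All 3 alpha chains were thus lower in irradiated wild-type than in non-irradiated cells, and in cells meeting 1 gate they remained lower, with log2 ratios of -2.17, -1.06 and -1.41. With each cell weighing the same, Itgal and Itgam missed 2-fold, at -0.91 and -0.79. Itgb7 stood at 57.3 CPM (49.6–65.8) in knockout, 19.7 (13.5–27.8) in irradiated wild-type and 48.1 (42.1–54.7) in non-irradiated cells. Itgax, the CD11c chain of alveolar macrophages and dendritic cells, went the other way, at 161 CPM (148–175) in knockout, 246 (222–271) in irradiated wild-type and 116 (107–126) in non-irradiated cells, and irradiated wild-type cells had 2.11 times (1.85–2.404) the non-irradiated level. It missed 2-fold with Scrublet doublets removed and with 20 CPM added (lowest log2 ratio 0.88).

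The makeup of this class also differed between libraries. Cells with alveolar macrophage transcripts (Siglecf, Marco or Krt79) were 15% of the class in the knockout, 40.7% in the irradiated wild-type and 10.4% in the non-irradiated library. Cells with Treml4 or Ace, genes of nonclassical monocytes, were 34.6% in the knockout, 18.6% in the irradiated wild-type and 51.1% in the non-irradiated library. Within the alveolar macrophage subgroup (36 knockout, 35 irradiated wild-type and 65 non-irradiated cells), Itgax stood at 359 CPM (323–398) in knockout, 394 (352–439.9) in irradiated wild-type and 223 (192–258) in non-irradiated cells. Itga4 stood there at 35.3 CPM (24.6–49.1) in knockout, 31.9 (20.9–46.8) in irradiated wild-type and 184 (156–216) in non-irradiated cells, against 253 CPM (218–291) in knockout, 155 (100.4–229) in irradiated wild-type and 422 (396–449) in non-irradiated cells in the Treml4 or Ace subgroup. The part of subgroup shares in the class differences was not tested.

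Knockout Csf1r cells stood above irradiated wild-type ones for 6 of 19 members (all genes 3.37%) and below for 1 (all genes 1.7%). Itgam was 2.31 times (1.77–3.06) and Itgb7 2.91 times (1.99–4.37) the irradiated wild-type level, and both were still apart in cells meeting 1 gate only. Itga8 stood at 33.7 CPM (27.8–40.4) in knockout, 12.9 (8.001–19.8) in irradiated wild-type and 67.3 (60.1–75.00) in non-irradiated cells. Lama2 stood at 16.1 CPM (12.2–20.9) in knockout, 4.31 (1.73–8.88) in irradiated wild-type and 16.7 (13.2–20.7) in non-irradiated cells. Lama4 stood at 12.1 CPM (8.71–16.3) in knockout, 3.08 (0.999–7.18) in irradiated wild-type and 32.3 (27.4–37.8) in non-irradiated cells. Lamb1 stood at 16.7 CPM (12.7–21.6) in knockout, 4.31 (1.73–8.88) in irradiated wild-type and 30.4 (25.7–35.7) in non-irradiated cells. These 4 genes are stromal, and in cells meeting 1 gate Itga8 stood at 1.998 CPM in knockout, 0 in irradiated wild-type and 8.17 in non-irradiated cells. Itga1 and Itga2, collagen receptor chains, were low in both irradiated lungs, at 9.21 CPM (6.299–13.00) in knockout, 11.7 (7.04–18.3) in irradiated wild-type and 85.8 (77.7–94.5) in non-irradiated cells and 1.15 CPM (0.314–2.95) in knockout, 1.23 (0.149–4.45) in irradiated wild-type and 11.2 (8.45–14.7) in non-irradiated cells. In 1-gate cells Itga1 stood at 8.49 CPM in knockout, 10.6 in irradiated wild-type and 11.8 in non-irradiated cells.

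Itgb5 was higher in Csf1r cells of both irradiated libraries than in non-irradiated ones, with only the knockout past 2-fold. It stood at 124 CPM (113–137) in knockout, 95.4 (80.98–112) in irradiated wild-type and 46.2 (40.3–52.7) in non-irradiated cells, a log2 ratio of 1.34 for knockout and 0.97 for irradiated wild-type against non-irradiated cells. The knockout difference held under all 14 alternatives, some of which could not remove a call. Among 1-gate cells the irradiated wild-type library was 2-fold apart as well, with 141 CPM in knockout, 118 in irradiated wild-type and 34.5 in non-irradiated cells. In the C1q subgroup of interstitial macrophages (28 knockout, 7 irradiated wild-type and 58 non-irradiated cells) Itgb5 stood at 327 CPM (285–374) in knockout, 259.7 (189–347) in irradiated wild-type and 57.1 (40.8–77.7) in non-irradiated cells. Of 27 members tested between knockout and non-irradiated Csf1r cells, 3 were higher (all genes 2.91%) and 6 lower (all genes 5.08%).

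Lamb3, a laminin chain of epithelium with a mean of 35.7 CPM in NK cells as well, was also counted in Csf1r cells. It stood at 15.3 CPM (11.4–19.9) in knockout, 38.8 (29.8–49.6) in irradiated wild-type and 7.91 (5.599–10.9) in non-irradiated cells, lower in knockout than in irradiated wild-type cells by log2 -1.11. In cells meeting 1 gate the Lamb3 log2 ratio of irradiated to non-irradiated wild-type was -0.49. Among the ligands, 2 of 11 matrix proteins were higher in irradiated than non-irradiated wild-type Csf1r cells and 5 lower (all genes 4.11% and 9.92%). Spp1 stood at 3305 CPM (3217–3394) in irradiated wild-type against 146 (135–157) in non-irradiated cells, and Mfge8, a bridge between the Itgav integrins and dying cells, at 421 CPM (390.0–454) in irradiated wild-type against 92.4 (84.04–101) in non-irradiated cells. In the knockout 4 of 9 were higher than in irradiated wild-type cells (all genes 3.37%), Spp1 again among them, at 10713 CPM (10605–10823) in knockout against 3305 (3217–3394) in irradiated wild-type cells.

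**Figure D3:**
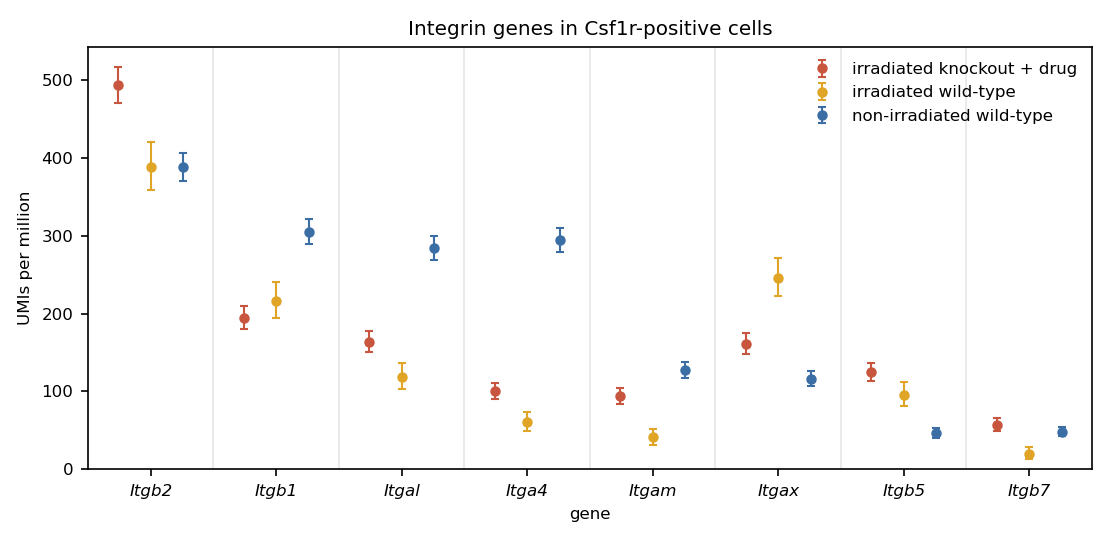
Levels of 8 integrin genes in Csf1r-positive cells in CPM (vertical axis), 1 point per library with its exact Poisson 95% interval. Itgal and Itga4 stand highest in non-irradiated cells, Itgax in irradiated wild-type cells, and Itgb5 is higher in both irradiated libraries than in the non-irradiated one.

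Itgax gives a myeloid example in which both factor motifs occur in 1 promoter window (RefSeq, GRCm38.p6). It is shown because Itgax, alone among Itgal, Itgam, Itga4 and Itgax, was highest in the irradiated wild-type library, and capitals mark the AP-1 motif TGANTCA at base 195 and the RUNX core TGTGGT at base 264.
Itgax promoter, chr7:128129300-128129599, plus strand: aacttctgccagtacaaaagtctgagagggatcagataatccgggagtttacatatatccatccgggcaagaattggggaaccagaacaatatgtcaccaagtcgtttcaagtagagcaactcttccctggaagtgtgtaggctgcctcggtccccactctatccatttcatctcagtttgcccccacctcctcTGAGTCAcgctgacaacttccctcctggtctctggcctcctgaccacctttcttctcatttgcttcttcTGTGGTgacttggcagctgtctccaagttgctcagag
The gene spans chr7:128129547-128150657 on the plus strand with no other gene overlapping it. A match is a run of letters and not a measured binding site.

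In epithelial cells, several integrins and laminin chains known from epithelium stood higher in both irradiated libraries. Of 24 members tested between irradiated and non-irradiated wild-type epithelial cells, 6 were higher (all genes 6.61%) and 5 lower (all genes 6.48%), and against the non-irradiated library the knockout had 6 of 25 higher (all genes 5.87%) and 6 lower (all genes 5.15%). Itgb6, the epithelial beta chain that with the Itgav product activates latent TGF-beta, stood at 35.9 CPM (29.4–43.4) in knockout, 41.8 (34.2–50.7) in irradiated wild-type and 10.03 (7.73–12.8) in non-irradiated cells. The ratio to the non-irradiated level was 3.58 times (2.597–4.96) in the knockout and 4.17 times (3.03–5.79) in the irradiated wild-type library. Itgb4, the beta chain of hemidesmosomes, stood at 34.8 CPM (28.4–42.3) in knockout, 64.6 (55.01–75.3) in irradiated wild-type and 10.03 (7.73–12.8) in non-irradiated cells. Itgb4 and Itgb6 in irradiated against non-irradiated wild-type cells stayed apart under all 14 alternatives, some of which could not remove a call.

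Itgb6 spans chr2:60598292-60722643 on the minus strand, and Itgb4 (chr11:115974709-116008412, plus strand) overlaps B230344G16Rik on the other strand.

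Other chains had smaller differences. Itga3, a laminin receptor chain paired with the Itgb1 product, stood at 71.7 CPM (62.4–82.1) in knockout, 58.99 (49.9–69.3) in irradiated wild-type and 26.2 (22.4–30.5) in non-irradiated cells. Itgav stood at 65.6 CPM (56.7–75.5) in knockout, 99.6 (87.7–113) in irradiated wild-type and 41.1 (36.2–46.4) in non-irradiated cells. Itgb1 stood at 182 CPM (167–198) in knockout, 206 (188–224) in irradiated wild-type and 206 (195–217) in non-irradiated cells. Lamb3 stood at 59.2 CPM (50.8–68.7) in knockout, 80.9 (70.2–92.8) in irradiated wild-type and 42.01 (37.1–47.3) in non-irradiated cells, which is under 2-fold for every pair. Lama3, an alpha chain of epithelial laminin, stood at 21.3 CPM (16.4–27.3) in knockout, 16.7 (12.1–22.6) in irradiated wild-type and 6.896 (5.01–9.26) in non-irradiated cells, and the knockout was apart from the non-irradiated library (log2 1.15). Itga6, the alpha partner of the Itgb4 product, stood at 31.8 CPM in knockout, 63.4 in irradiated wild-type and 38.6 in non-irradiated cells, with no pair apart. Itgae was counted higher in irradiated wild-type cells, at 6.43 CPM (3.87–10.04) in knockout, 13.2 (9.05–18.5) in irradiated wild-type and 3.92 (2.54–5.78) in non-irradiated cells, but stood at 2.605 CPM in female-type irradiated wild-type cells, where the log2 ratio to non-irradiated cells was -0.25.

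Itgb6 and Itgb4 were also followed in alveolar and airway subgroups. These were not exclusive, and a cell could count in more than 1 of them. Alveolar cells were a smaller share of irradiated epithelium: cells with Lamp3 or Etv5, type 2 cell genes, were 26.3% in the knockout, 30.5% in the irradiated wild-type and 53.6% in the non-irradiated library. In these 50 knockout, 36 irradiated wild-type and 240 non-irradiated cells Itgb6 stood at 61.9 CPM (48.6–77.9) in knockout, 54.7 (42.96–68.7) in irradiated wild-type and 12.2 (8.97–16.1) in non-irradiated cells. Itgb4 stood in them at 24.6 CPM (16.5–35.3) in knockout, 53.2 (41.6–67.03) in irradiated wild-type and 1.52 (0.558–3.31) in non-irradiated cells. In cells with Ager or Rtkn2, type 1 cell genes (47 knockout, 35 irradiated wild-type and 221 non-irradiated cells), Itgb6 stood at 73.00 CPM (57.6–91.2) in knockout, 66.3 (51.1–84.7) in irradiated wild-type and 12.98 (9.77–16.9) in non-irradiated cells. In ciliated cells with Foxj1, Ccdc153 or Tmem212 (33 knockout, 35 irradiated wild-type and 59 non-irradiated cells), Itgb4 stood at 110.0 CPM (86.8–137) in knockout, 112 (93.5–133) in irradiated wild-type and 31.4 (23.3–41.4) in non-irradiated cells. Itgb6 stood in them at 18.6 CPM (9.89–31.8) in knockout, 29.5 (20.4–41.2) in irradiated wild-type and 10.7 (6.22–17.1) in non-irradiated cells. In cells with Scgb3a2 or Cyp2f2, club cell genes (50 knockout, 39 irradiated wild-type and 51 non-irradiated cells), Itgb4 stood at 46.03 CPM (33.9–61.03) in knockout, 106 (84.7–130.1) in irradiated wild-type and 34.02 (25.3–44.7) in non-irradiated cells. Itgb6 stood in them at 15.3 CPM (8.77–24.9) in knockout, 21.6 (12.8–34.1) in irradiated wild-type and 10.7 (6.100–17.3) in non-irradiated cells. The intervals of both irradiated libraries lay above that of the non-irradiated library for Itgb6 in both alveolar subgroups. These subgroups share cells, with 53.6% and 49.3% of non-irradiated epithelial cells, so that they are not separate observations. The share of all genes with such intervals was not counted. Within type 2 cells 4 of 19 members were higher in the knockout than in the non-irradiated library (all genes 10.2%). Among them were Itgb6, Itga3 and Lama3 with log2 ratios of 1.96, 1.88 and 1.44. A further 5 were lower, Itga1, Itga8, Itgb5, Lama4 and Lamb1, and the share of all genes lower is not given here.

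**Figure D4:**
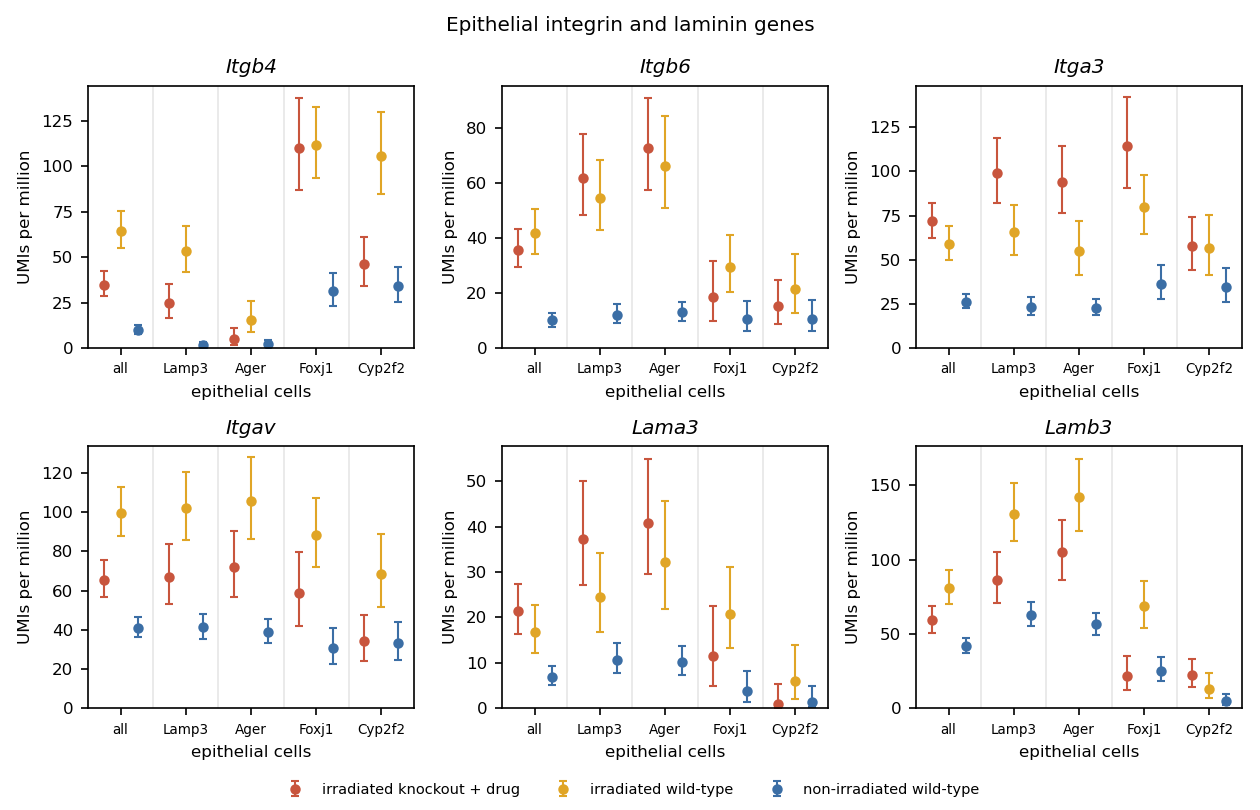
Levels of 6 genes in CPM (vertical axes) in all epithelial cells and in subgroups with Lamp3, Ager, Foxj1 or Cyp2f2 transcripts (horizontal axes), 1 point per library with its exact Poisson 95% interval. A cell can be in more than 1 subgroup. Itgb6 in all epithelial cells is at 35.9 in knockout, 41.8 in irradiated wild-type and 10.03 in non-irradiated cells.

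The genes lower in irradiated epithelium were again stromal. Itga8 stood at 20.3 CPM (15.5–26.1) in knockout, 1.196 (0.247–3.49) in irradiated wild-type and 68.5 (62.2–75.2) in non-irradiated cells. Itga1 stood at 5.41 CPM (3.09–8.79) in knockout, 4.38 (2.19–7.84) in irradiated wild-type and 67.4 (61.2–74.1) in non-irradiated cells. Lama2 stood at 3.38 CPM (1.62–6.22) in knockout, 0.399 (0.0101–2.22) in irradiated wild-type and 12.5 (9.94–15.6) in non-irradiated cells. Lama4 stood at 5.07 CPM (2.84–8.37) in knockout, 0.399 (0.0101–2.22) in irradiated wild-type and 28.2 (24.2–32.6) in non-irradiated cells. Lamb1 stood at 9.47 CPM (6.29–13.7) in knockout, 7.57 (4.56–11.8) in irradiated wild-type and 24.5 (20.8–28.6) in non-irradiated cells. Of the Itga8 UMIs, 98.3% in the knockout library, 66.7% in the irradiated wild-type library and 96.3% in the non-irradiated library lay in cells meeting another gate, and in cells meeting the epithelial gate alone none of the 5 genes was apart. Itga8 was also higher in knockout than in irradiated wild-type epithelial cells, the only member apart of 19 (all genes 1.8% higher and 0.765% lower), and in 1-gate cells the log2 ratio was -0.02. In those 1-gate cells 5 of 14 members were higher in irradiated than in non-irradiated wild-type cells (all genes 10.5%). Itga3, Itga6, Itgb4 and Itgb6 were among them, and Itgav and Itgae were not. Itga9 was lower there (all genes 3.82%). From the lists, 1 of 11 integrin activation genes was higher (all genes 6.61% higher and 6.48% lower). It was the epithelial kindlin Fermt1, at 15.5 CPM (11.1–21.2) in irradiated wild-type against 5.17 (3.56–7.26) in non-irradiated cells. Of 16 focal adhesion genes 1 was higher and 4 were lower, and the higher one was Actn1, an alpha-actinin, at 224 CPM (206–243) in irradiated wild-type against 93.1 (85.8–101) in non-irradiated cells. Of 7 genes of latent TGF-beta complexes 1 was higher, Tgfb2, at 51.4 CPM (42.9–61.1) in irradiated wild-type against 9.09 (6.903–11.8) in non-irradiated cells, and 2 were lower. A single higher gene in lists of this size is not far from the share over all genes.

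In the endothelial class, Itga1, Itga6, Itgb1 and laminin chains were lower and Itga4, Itgae, Itgal and Itgb7 higher in irradiated than in non-irradiated wild-type cells. Of 31 members tested between irradiated and non-irradiated wild-type cells, 7 were higher (all genes 5.87%) and 15 lower (all genes 12.4%), with a median log2 ratio of -0.88 beside -0.21 for all genes. The 8 endothelial markers summed to 2944 CPM in knockout, 2006 in irradiated wild-type and 7391 in non-irradiated cells of the class. The 8 fibroblast markers summed to 2283 CPM in knockout, 1203 in irradiated wild-type and 6269 in non-irradiated cells of it, and their part in the results was not tested. Without cells that have a Ptprc UMI, a choice made after the data were seen, 276 knockout, 107 irradiated wild-type and 2277 non-irradiated cells remained. In them 1 of 22 members was higher, Itgb4, and 3 were lower, Itga1, Itga6 and Itga8 (all genes 3.61% and 4.34%). Cells meeting 1 gate only gave a different list for the same pair of libraries. There 6 of 21 members were higher, Itga4, Itgal, Itgav, Itgax, Itgb2 and Itgb7 (all genes 5.07%). A further 5 were lower, Itga1, Itga5, Itga6, Itga8 and Itga9 (all genes 8.49%).

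Itga1, Itga6 and Itga8 stayed lower in irradiated than in non-irradiated wild-type cells of the class under all 14 alternatives, some of which could not remove a call. Itga1, which in vessels forms a collagen and laminin receptor with the Itgb1 product, stood at 127 CPM (118–136) in knockout, 67.2 (59.3–75.9) in irradiated wild-type and 604 (594–615) in non-irradiated cells. Without Ptprc-positive cells it stood at 332 CPM (307–359.5) in knockout, 232 (203–265) in irradiated wild-type and 732 (718–746) in non-irradiated cells. Itga6, a laminin receptor chain, stood at 77.8 CPM (71.1–84.9) in knockout, 54.8 (47.6–62.7) in irradiated wild-type and 329 (322–337) in non-irradiated cells and, without those cells, at 194 CPM (175–215) in knockout, 140.3 (118–166) in irradiated wild-type and 398 (388–408) in non-irradiated cells. In cells with Car4 or Ednrb, genes of aerocytes (69 knockout, 42 irradiated wild-type and 549 non-irradiated cells), Itga1 stood at 422 CPM (371–477) in knockout, 387 (323–459.6) in irradiated wild-type and 839 (816–862) in non-irradiated cells. Itga6 stood there at 158 CPM (128–193) in knockout, 104 (72.6–145) in irradiated wild-type and 418 (402–434) in non-irradiated cells, and of 17 members it alone was lower in knockout than in non-irradiated cells (all genes 5.73%). In cells with Gpihbp1 or Sema3c and without Car4 or Ednrb, genes of other capillaries (55 knockout, 13 irradiated wild-type and 902 non-irradiated cells), Itga1 stood at 444 CPM (377–519) in knockout, 151 (108–205) in irradiated wild-type and 942 (913–971) in non-irradiated cells. Itga6 stood there at 339.9 CPM (282–406) in knockout, 192 (143–253) in irradiated wild-type and 542 (521–565) in non-irradiated cells. In that subgroup Itga1 but not Itga6 was lower in knockout than in non-irradiated cells, among 5 of 15 members (all genes 9.86%), and irradiated wild-type cells were too few for calls in both subgroups. Itga1 (chr13:114953096-115101964, minus strand) holds Pelo and Gm49395 on its own strand, so that reads in the shared stretch may be assigned to either gene.

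Itga8 stood at 31.6 CPM (27.4–36.3) in knockout, 14.01 (10.5–18.3) in irradiated wild-type and 114 (109.6–119) in non-irradiated cells, and at 0.572 CPM in knockout, 0 in irradiated wild-type and 9.696 in non-irradiated cells in cells meeting only the endothelial gate. Itgb1 stood at 352 CPM (337–367) in knockout, 277 (261–294) in irradiated wild-type and 742 (731–754) in non-irradiated cells, and without Ptprc-positive cells its log2 ratio of irradiated to non-irradiated wild-type was -0.61. Itga3 stood at 45.4 CPM (40.3–50.9) in knockout, 39.2 (33.2–45.95) in irradiated wild-type and 84.2 (80.3–88.2) in non-irradiated cells, with a ratio that turned to 0.30 without those cells. Itga5 stood at 20.97 CPM (17.6–24.8) in knockout, 14.01 (10.5–18.3) in irradiated wild-type and 58.98 (55.7–62.4) in non-irradiated cells. Itga2 stood at 31.3 CPM (27.1–35.96) in knockout, 24.7 (19.9–30.1) in irradiated wild-type and 73.3 (69.7–77.02) in non-irradiated cells. Itga9 stood at 16.1 CPM (13.2–19.6) in knockout, 9.601 (6.76–13.2) in irradiated wild-type and 38.7 (36.1–41.5) in non-irradiated cells. Itgb5 stood at 30.99 CPM (26.8–35.6) in knockout, 23.9 (19.2–29.3) in irradiated wild-type and 53.1 (50.1–56.3) in non-irradiated cells. None of the last 4 was apart once Ptprc-positive cells were left out. In cells meeting 1 gate only, Itga5 and Itga9 were still lower in irradiated than in non-irradiated wild-type cells. Itgb4 was not apart in the whole class, at 16.6 CPM in knockout, 20.5 in irradiated wild-type and 13.1 in non-irradiated cells, and without Ptprc-positive cells it stood at 46.7 CPM (37.5–57.6) in knockout, 52.6 (39.2–69.2) in irradiated wild-type and 15.9 (13.99–18.04) in non-irradiated cells.

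Of the 6 laminin chains lower in the class, all but Lama5 were highest in fibroblasts among the 6 classes. Lama5, the alpha chain of mature vascular basement membrane, stood at 29.1 CPM (25.1–33.6) in knockout, 18.4 (14.4–23.2) in irradiated wild-type and 62.5 (59.1–65.9) in non-irradiated cells, and without Ptprc-positive cells at 74.9 CPM in knockout, 63.98 in irradiated wild-type and 76.5 in non-irradiated cells. Lama4 stood at 25.04 CPM (21.3–29.2) in knockout, 12.97 (9.63–17.1) in irradiated wild-type and 55.6 (52.5–58.9) in non-irradiated cells, and without them at 57.4 CPM in knockout, 39.2 in irradiated wild-type and 64.3 in non-irradiated cells. Lamb1 stood at 21.8 CPM (18.3–25.7) in knockout, 15.6 (11.9–20.04) in irradiated wild-type and 49.6 (46.6–52.7) in non-irradiated cells. Lamb2 stood at 35.2 CPM (30.8–40.1) in knockout, 23.6 (19.01–28.99) in irradiated wild-type and 91.6 (87.5–95.8) in non-irradiated cells. Lama2 stood at 7.36 CPM (5.41–9.78) in knockout, 4.93 (2.97–7.699) in irradiated wild-type and 24.8 (22.7–27.03) in non-irradiated cells. Lamc3 stood at 2.66 CPM (1.55–4.26) in knockout, 1.297 (0.421–3.03) in irradiated wild-type and 9.33 (8.07–10.7) in non-irradiated cells. None of these 6 genes was 2-fold apart without Ptprc-positive cells, and in cells meeting 1 gate the log2 ratio of irradiated to non-irradiated wild-type was 0.09 for Lama2 and 0.43 for Lamb1.

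Of the 7 higher genes, Itga4 stood at 98.4 CPM (90.9–106) in knockout, 154 (142–167) in irradiated wild-type and 52.8 (49.7–56.00) in non-irradiated cells. Itgb7 stood at 119.7 CPM (111–129) in knockout, 119 (108–130.0) in irradiated wild-type and 19.8 (17.9–21.8) in non-irradiated cells. Itgae stood at 16.6 CPM (13.6–20.1) in knockout, 32.95 (27.5–39.2) in irradiated wild-type and 2.86 (2.18–3.68) in non-irradiated cells. Itgal stood at 75.3 CPM (68.7–82.3) in knockout, 82.8 (73.9–92.4) in irradiated wild-type and 35.8 (33.3–38.5) in non-irradiated cells. Itgav stood at 59.5 CPM (53.6–65.8) in knockout, 95.5 (85.98–106) in irradiated wild-type and 41.8 (39.1–44.7) in non-irradiated cells. Itgax stood at 15.03 CPM (12.2–18.3) in knockout, 24.9 (20.2–30.4) in irradiated wild-type and 8.85 (7.63–10.2) in non-irradiated cells. The last of the 7, the laminin chain Lamb3, stood at 12.1 CPM (9.51–15.1) in knockout, 20.8 (16.5–25.8) in irradiated wild-type and 6.38 (5.34–7.56) in non-irradiated cells. Its mean over the 3 libraries was highest in epithelial cells (60.7 CPM), followed by NK cells (35.7), and was 13.5 in T cells. Without Ptprc-positive cells Itga4 stood at 15.9 CPM in knockout, 6.19 in irradiated wild-type and 8.16 in non-irradiated cells. Without them Itgb7 stood at 31.3 CPM in knockout, 28.9 in irradiated wild-type and 4.47 in non-irradiated cells, where it was apart between the knockout and the non-irradiated library and irradiated wild-type cells had fewer than 30 of its UMIs. No member was apart between knockout and irradiated wild-type endothelial cells out of 28 tested (all genes 1.39% higher and 1.54% lower), and the median log2 ratio was 0.32 beside 0.06 for all genes. In 1-gate cells Itga9 was higher and Itga4 and Itgax lower, of 21 (all genes 3.72% and 2.26%). Under stricter gates Itga8 and Itga9 were higher, of 16 (all genes 4.63%). Without Ptprc-positive cells none of 20 was apart. Between the knockout and the non-irradiated library 2 of 32 were higher, Itgae and Itgb7 (all genes 4.47%), and 11 lower (all genes 7.97%).

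**Figure D5:**
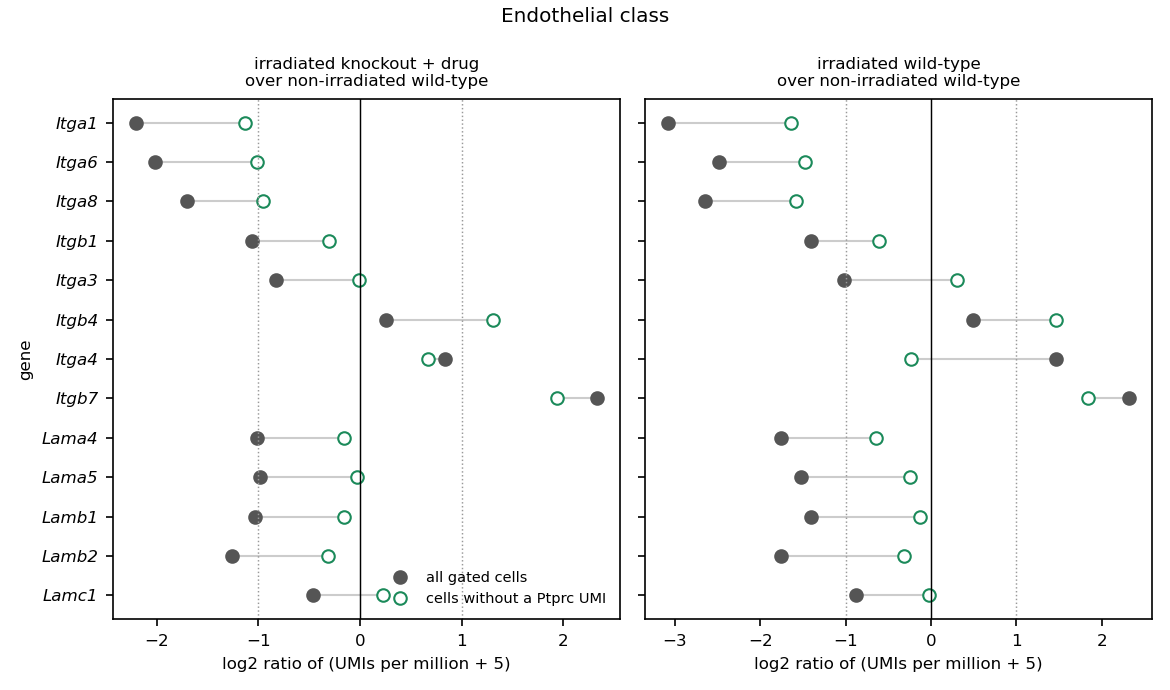
Log2 ratios of (CPM + 5) for 13 genes in the endothelial class, knockout with drug over non-irradiated (left) and irradiated wild-type over non-irradiated (right), with all gated cells as filled points and cells without a Ptprc UMI as open points. Dotted lines mark 2-fold; Itga1 and Itga6 stay to the left of it in both panels, and the laminin genes move to within 2-fold.

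Among other endothelial genes, 9 of 17 focal adhesion genes were lower and 1 higher in irradiated than in non-irradiated wild-type cells (median -1.04 beside -0.21 over all genes). Over all genes 12.4% were lower and 5.87% higher. Of 14 basement membrane partners 7 were lower and none higher (median -1.06). Tns1, a tensin that links integrins to actin, stood at 54.2 CPM (47.1–62.1) in irradiated wild-type against 339.7 (332–348) in non-irradiated cells. Fermt2 stood at 82.00 CPM (73.2–91.6) in irradiated wild-type against 442 (433–451) in non-irradiated cells, and Col4a1 at 249 CPM (233–265) in irradiated wild-type against 771 (759–783) in non-irradiated cells. Of 8 other laminin receptors such as dystroglycan and syndecans, 5 were lower and 1 higher (median -1.01), and of 7 cell-bound integrin ligands 4 were lower and 1 higher (median -1.14). Vcam1, the endothelial ligand of Itga4 integrins, stood at 29.8 CPM (24.6–35.8) in irradiated wild-type against 157 (152–162) in non-irradiated cells, and in the knockout against the irradiated wild-type it was higher, at 76.8 CPM (70.2–83.96) in knockout against 29.8 (24.6–35.8) in irradiated wild-type cells. These list values include Ptprc-positive cells, and their part in them was not tested.

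Fibroblasts held the largest amounts of laminin transcripts and had the fewest members apart between irradiated and non-irradiated wild-type cells. Of 29 members tested between irradiated and non-irradiated wild-type fibroblasts, none was higher (all genes 0.587%) and 2 were lower (all genes 1.81%), with a median log2 ratio of -0.10. Itgb1 stood at 584 CPM (568–599) in knockout, 552 (530.2–574) in irradiated wild-type and 591 (583–599) in non-irradiated cells. Itga8 stood at 560.3 CPM (545–576) in knockout, 459 (439–479) in irradiated wild-type and 552 (544–559.9) in non-irradiated cells. Of the laminin chains, Lamc1 stood at 299 CPM (288–311) in knockout, 275 (259.7–291) in irradiated wild-type and 233 (228–238) in non-irradiated cells. Lamb1 stood at 251 CPM (241–262) in knockout, 265 (250.3–281) in irradiated wild-type and 216 (211–221) in non-irradiated cells. Lama4 stood at 217 CPM (207–226) in knockout, 219 (205–233) in irradiated wild-type and 188 (183–193) in non-irradiated cells. These genes stayed within 1.5-fold between every pair of libraries.

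Itga6 and Itga1 were the 2 lower genes. Itga6 stood at 7.91 CPM (6.22–9.91) in knockout, 7.43 (5.11–10.4) in irradiated wild-type and 43.01 (40.8–45.2) in non-irradiated cells, and in cells meeting only the fibroblast gate at 2.88 CPM (1.78–4.400) in knockout, 4.24 (2.43–6.89) in irradiated wild-type and 6.78 (5.79–7.89) in non-irradiated cells, where it was no longer apart. Itga1 stood at 96.5 CPM (90.3–103) in knockout, 86.9 (78.4–96.02) in irradiated wild-type and 179 (175–184) in non-irradiated cells, and in 1-gate cells at 96.6 CPM (89.6–104) in knockout, 90.99 (81.6–101) in irradiated wild-type and 127 (123–132) in non-irradiated cells. Against the non-irradiated library the knockout had Itga6 alone apart of 33 members (all genes 1.09% lower and 0.808% higher). Against the irradiated wild-type library Itgb2 alone was higher of 29 (all genes 0.943%) and none was lower (all genes 0.329%), with 22.1 CPM (19.2–25.3) in knockout, 6.53 (4.37–9.38) in irradiated wild-type and 11.3 (10.2–12.5) in non-irradiated cells, and without Ptprc-positive cells Itgb2 stood at 3.18 CPM in knockout, 2.58 in irradiated wild-type and 2.51 in non-irradiated cells. The fibroblast levels of the other members were close in the 3 libraries: Lama2 stood at 159.9 CPM in knockout, 155 in irradiated wild-type and 135 in non-irradiated cells, Lamb2 at 125 CPM in knockout, 116 in irradiated wild-type and 133 in non-irradiated cells. Lamc3 stood at 26.4 CPM in knockout, 27.7 in irradiated wild-type and 34.4 in non-irradiated cells. Itgb5 stood at 176 CPM in knockout, 206 in irradiated wild-type and 160.3 in non-irradiated cells. Itgav stood at 80.02 CPM in knockout, 74.97 in irradiated wild-type and 61.7 in non-irradiated cells. Itga9 stood at 75.7 CPM in knockout, 53.8 in irradiated wild-type and 73.4 in non-irradiated cells. Itga5 stood at 54.3 CPM in knockout, 41.4 in irradiated wild-type and 48.03 in non-irradiated cells. Itgb8, which with the Itgav product also activates TGF-beta, stood at 17.2 CPM in knockout, 20.04 in irradiated wild-type and 16.1 in non-irradiated cells.

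Of 12 matrix ligands of integrins in fibroblasts, 2 were higher and none lower in irradiated against non-irradiated wild-type cells (all genes 0.587% and 1.81%). Spp1 stood at 619 CPM (596–642) in irradiated wild-type against 49.2 (46.9–51.6) in non-irradiated cells, and Fn1, fibronectin, at 1426 CPM (1391–1462) in irradiated wild-type against 639 (631–648) in non-irradiated cells. In the knockout 1 of 11 was lower than in irradiated wild-type fibroblasts (all genes 0.329%), again Spp1, at 257 CPM (247–267) in knockout against 619 (596–642) in irradiated wild-type cells. Tnc, tenascin-C, was higher in knockout than in non-irradiated fibroblasts, at 130.0 CPM (123–137) in knockout against 44.2 (41.97–46.4) in non-irradiated cells. Of 13 basement membrane partners none was apart between irradiated and non-irradiated wild-type fibroblasts, and their median log2 ratio was 0.15.

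The remaining members were low. Itgb3, a partner of the Itgav product, was highest in the endothelial class, at 14.6 CPM in knockout, 15.8 in irradiated wild-type and 9.52 in non-irradiated cells. Itga7, the laminin receptor chain of muscle, stood at 9.28 CPM in knockout, 12.8 in irradiated wild-type and 10.7 in non-irradiated cells in the fibroblast class. The 5 genes that stayed under a mean of 10 CPM in every class were Itga2b, Itga10, Itga11, Itgad and Lama1. Itga10 and Itga11, collagen receptor chains of cartilage and mesenchyme, stood at 4.74 CPM in knockout, 5.85 in irradiated wild-type and 3.03 in non-irradiated cells and at 4.11 CPM in knockout, 4.503 in irradiated wild-type and 3.697 in non-irradiated cells in fibroblasts. Itgad, a myeloid beta-2 partner, stood at 1.44 CPM in knockout, 3.08 in irradiated wild-type and 0.833 in non-irradiated cells in Csf1r cells on at most 5 UMIs per library. Lama1, the alpha chain of embryonic basement membranes, reached 4.85 CPM in knockout, 1.297 in irradiated wild-type and 3.71 in non-irradiated cells in the endothelial class. Itga2b, the alpha IIb chain of platelets, stood at 4.85 CPM in knockout, 4.73 in irradiated wild-type and 5.37 in non-irradiated cells of the fibroblast class. None of these 5 genes was apart between any pair of libraries in the 6 classes, and Itgad never reached 30 UMIs.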

How the data were processed

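Lung cells were profiled in 3 droplet 3′ libraries with unique molecular identifiers (UMIs), 1 per group. The deposited values are whole-number UMI counts per gene and barcode that the authors did not normalise; per the file headers they were written by software version 3.1.0, and the build was mm10 per the submitters' processing notes. The sources used here do not name the aligner, its annotation or any removal of doublets. Cells with at least 250 genes and at most 15% mitochondrial UMIs were kept (median 6070.5 UMIs in knockout, 5706 in irradiated wild-type and 4899 in non-irradiated cells). No doublets were removed in the main counts. As an alternative the highest Scrublet scores were removed at a rate of 0.8% per 1000 barcodes (782 knockout, 270 irradiated wild-type and 1371 non-irradiated cells), because the automatic threshold marked only 3 cells in the irradiated wild-type library.

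UMIs were summed per gate and library and scaled to CPM, with exact Poisson 95% intervals and, for ratios, conditional binomial ones. A class needed 50 cells in both libraries. Named genes were all members apart in irradiated against non-irradiated wild-type or in knockout against irradiated wild-type cells, the 5 highest members of each class, and the list genes farthest apart. In addition, 7 lists with 82 genes of integrin activation, focal adhesion, matrix and cell-bound ligands, basement membrane, other laminin receptors and latent TGF-beta complexes were counted. Of the members, 1 is counted in the totals but not reported here. The members and lists were chosen with earlier results of these data known. Gene positions came from GENCODE vM21 (GRCm38; 37 of 37 identifiers matched). Sums, intervals and figures were made in python 3.11.15 with scipy 1.17.1, scanpy 1.11.5, numpy 2.4.6, matplotlib 3.10.9 and pandas 2.3.3.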

Additional observations from a re-analysis of the deposited data

Results flagged for a closer look

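A few genes stood higher in irradiated than in non-irradiated wild-type cells of 1 class and lower in another. Each difference between classes is between 2 libraries only and was not tested.

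Itga4 had a log2 ratio of 1.25 in T cells and 1.46 in endothelial-gated cells, and of -2.20 in Csf1r cells. Itgal had 1.11 in endothelial-gated cells and -1.22 in Csf1r cells, and Itgb7 had 2.32 in endothelial-gated cells and -1.10 in Csf1r cells. Itga3 had 1.04 in epithelial cells and -1.01 in endothelial-gated cells.

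Of the endothelial-gated cells, 73.3% in the irradiated wild-type and 22.7% in the non-irradiated library had a Ptprc UMI. Without them the endothelial log2 ratio was -0.23 for Itga4, 1.44 for Itgal, 1.84 for Itgb7 and 0.30 for Itga3. Of these, Itgal and Itgb7 had fewer than 30 UMIs there in the irradiated wild-type library and were not called. In cells that met 1 gate only, the Itga4 ratio was 1.35 in T cells and -2.17 in Csf1r cells, so that its opposite directions in these 2 classes were present there too.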

How the results depend on the processing

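In all, 19 member and class combinations were higher and 48 lower in irradiated against non-irradiated wild-type cells, 10 higher and 1 lower in knockout against irradiated wild-type cells, and 11 higher and 32 lower in knockout against non-irradiated cells. With 1 CPM added before the ratio, the count lower in knockout against irradiated wild-type was 3. With 20 CPM added, the higher and lower counts were 10 and 23 for irradiated against non-irradiated wild-type, 0 and 0 for knockout against irradiated wild-type, and 3 and 13 for knockout against non-irradiated cells. At 1.5-fold they were 16 and 17 for knockout against irradiated wild-type and 22 and 58 for knockout against non-irradiated cells. In cells meeting 1 gate only, the lower count was 10 for irradiated against non-irradiated wild-type and 5 for knockout against non-irradiated cells, and knockout against irradiated wild-type had 3 higher and 2 lower. With the highest Scrublet scores removed the lower counts were 29 for irradiated against non-irradiated wild-type, 0 for knockout against irradiated wild-type and 17 for knockout against non-irradiated cells. Stricter gates gave 11 higher and 17 lower for irradiated against non-irradiated wild-type, 2 higher for knockout against irradiated wild-type, and 7 higher and 16 lower for knockout against non-irradiated cells. In female-type cells, knockout against irradiated wild-type had 5 higher and 0 lower. The cause of these shifts was not tested. Stricter gates and female-type cells left 45 and 46 Csf1r cells in the irradiated wild-type library, too few for its comparisons. Of 1654 values of single genes under the alternatives, 1305 kept their direction and their call, 314 kept the direction but missed the 2-fold or the 30-UMI threshold, and 35 turned round. Of 121 gene, class and pair results, 11 were apart under every alternative run. These counts include alternatives that could not remove a call: a 1.5-fold limit, a minimum of 10 UMIs and 1 CPM added. Outside the endothelial and fibroblast classes, leaving out Ptprc-positive cells repeated the main counts. The log2 ratios that turned round follow. For knockout over irradiated wild-type with each cell weighing the same it was 0.29 for Lamb3 in Csf1r cells. For knockout over irradiated wild-type in cells meeting 1 gate only they were 0.41 for Lamb3 in Csf1r and -0.020 for Itga8 in epithelial cells. For irradiated over non-irradiated wild-type in cells meeting 1 gate only they were 0.044 for Itga1 in T, 0.17 for Itga5 in NK, 0.013 for Lamc1 in NK, -0.49 for Lamb3 in Csf1r, 0.23 for Itgb5 in endothelial, 0.091 for Lama2 in endothelial, 0.43 for Lamb1 in endothelial and 0.55 for Lamb1 in epithelial cells. For irradiated over non-irradiated wild-type under stricter gates they were 0.24 for Itga2 in endothelial, 0.74 for Itga3 in endothelial, -0.17 for Itgax in endothelial, 0.52 for Itgb5 in endothelial, 0.058 for Lama5 in endothelial, -0.48 for Lamb3 in endothelial and -0.24 for Itgae in epithelial cells. For irradiated over non-irradiated wild-type in female-type cells it was -0.25 for Itgae in epithelial cells. For irradiated over non-irradiated wild-type without Ptprc-positive cells they were 0.30 for Itga3 in endothelial, -0.23 for Itga4 in endothelial, -0.19 for Itgax in endothelial and 0.022 for Itgb5 in endothelial cells. For knockout over non-irradiated in cells meeting 1 gate only they were 0.12 for Lamb2 in NK, 0.51 for Itga6 in Csf1r, 0.35 for Lama4 in endothelial, 0.93 for Lamb1 in endothelial, 0.28 for Itga2 in epithelial, -0.36 for Itgb7 in epithelial and 0.23 for Lamb1 in epithelial cells. For knockout over non-irradiated with Scrublet doublets removed it was 0.026 for Itga1 in NK cells. For knockout over non-irradiated under stricter gates they were 0.080 for Itga9 in endothelial, 0.13 for Lama4 in endothelial, 0.31 for Lamb1 in endothelial and 0.10 for Itga2 in epithelial cells. Median-of-ratios scaling shifted log2 ratios by 0.26 in epithelial and -0.14 in endothelial-gated cells of irradiated over non-irradiated wild-type, by 0.22 and -0.17 in those of knockout over non-irradiated, and by at most 0.12 in size elsewhere. Depth limits rare members, since under 30 UMIs no gene was called. No paired analysis was possible because each group had 1 library.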

Other observations

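Cells of a further 5 gates, many of which also met one of the 6 above, expressed members, again with 1 library per group and no test. Neutrophil-gated cells (Retnlg, Mmp8 or Cxcr2) had Itgb2, the leukocyte beta 2 chain, at 288 CPM (267–310.4) in knockout, 90.3 (71.02–113) in irradiated wild-type and 228 (202–257) in non-irradiated cells. Itgam, its partner in complement receptor 3, stood at 116 CPM (103–131) in knockout, 43.3 (30.4–60.00) in irradiated wild-type and 112 (93.5–132) in non-irradiated cells. Itgax stood at 55.9 CPM (46.9–66.2) in knockout, 21.7 (12.8–34.2) in irradiated wild-type and 19.98 (12.8–29.7) in non-irradiated cells. Of these cells, 42.4% in the knockout, 51.9% in the irradiated wild-type and 47.4% in the non-irradiated library also met another gate.

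In basophil- or mast-gated cells (62 in the knockout, 80 in the irradiated wild-type and 11 in the non-irradiated library), Itga2b, known as the platelet alpha IIb chain, stood at 181 CPM (142–228) in knockout, 197 (156–246) in irradiated wild-type and 95.7 (38.5–197) in non-irradiated cells. Itga4 stood at 206 CPM (164–256) in knockout, 660.5 (582–746) in irradiated wild-type and 13.7 (0.346–76.2) in non-irradiated cells, with a log2 ratio of knockout to irradiated wild-type of -1.65. B cells had Itga4 at 58.4 CPM (51.8–65.6) in knockout, 86.98 (77.4–97.4) in irradiated wild-type and 47.5 (43.04–52.3) in non-irradiated cells. Itgb1, the shared beta 1 chain, stood there at 46.6 CPM (40.7–53.1) in knockout, 51.3 (44.04–59.5) in irradiated wild-type and 119 (112–126) in non-irradiated cells. In B cells the 8 fibroblast markers summed to 574 CPM in knockout, 909 in irradiated wild-type and 2903 in non-irradiated cells, and the 8 endothelial markers to 72.6 CPM in knockout, 38.6 in irradiated wild-type and 525.9 in non-irradiated cells, and their part in the Itgb1 levels was not tested. Smooth-muscle-gated cells (72 in the knockout, 35 in the irradiated wild-type and 398 in the non-irradiated library) had Itga8 at 906 CPM (834–983) in knockout, 406 (346–473) in irradiated wild-type and 866 (832–901) in non-irradiated cells. Itga7, a laminin receptor chain of muscle, stood there at 49.7 CPM (34.03–70.2) in knockout, 71.7 (48.05–103) in irradiated wild-type and 55.05 (46.8–64.4) in non-irradiated cells. Of the smooth-muscle-gated cells, 95.8% in the knockout, 88.6% in the irradiated wild-type and 84.9% in the non-irradiated library also met another gate. In mural-gated cells, Itga5 stood at 99.8 CPM (83.9–118) in knockout, 37.1 (25.96–51.3) in irradiated wild-type and 100.5 (91.5–110.1) in non-irradiated cells. Itga9 stood at 95.5 CPM (80.00–113) in knockout, 32.9 (22.5–46.5) in irradiated wild-type and 82.6 (74.5–91.3) in non-irradiated cells. Of the mural-gated cells, 93.5% in the knockout, 89.7% in the irradiated wild-type and 81.3% in the non-irradiated library also met another gate.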
